A study of Homo sapiens with 4 samples.

Results

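The WNT module described here comprised the WNT ligands, their Frizzled (FZD) receptors, the co-receptors LRP5 and LRP6, the secreted antagonists of the DKK and SFRP families with FRZB, and a set of intracellular and membrane regulators. Its 49 members were found by gene symbol, out of 29655 distinct gene names in the count tables. All libraries came from UMSCC74B, an established cell line of head and neck squamous carcinoma (HNSCC), sampled 72 h after shRNA plasmids had been delivered and kept without antibiotic. There were 2 libraries from cells given control shRNA (genotype label WT) and 2 from cells given shRNA against PRMT5 (genotype label PRMT5 KD), so 1 cell line carried both arms. The labels describe transfection and the methods of the study describe lentiviral transduction. Nothing in the sources says that the libraries of a group were separate cultures, so p-values measure only the spread between these libraries, which may be technical.

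WNT proteins are lipid-modified ligands that bind a Frizzled receptor together with LRP5 or LRP6. In the canonical branch, this stops a destruction complex built on AXIN and APC from marking beta-catenin (CTNNB1) for degradation, and beta-catenin then acts with TCF/LEF factors on target genes. WNT5A and its relatives mostly act through branches that do not need beta-catenin, and DKK and SFRP proteins are secreted antagonists. In squamous epithelia, these signals are known for their part in stem cell maintenance, cell polarity and migration.

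Library totals ran from 52185289 to 65964558 estimated counts, and the share of rRNA was 15.3% and 14.2% in the control libraries against 26.2% and 18% in the libraries labelled PRMT5 KD. The PRMT5 transcript (chr14:22920525-22929408, minus strand) did not follow the labels. It had 94.3 and 84.3 CPM (counts scaled to library size with TMM factors) in control against 132 and 150 CPM with the PRMT5 KD label. Its log2 fold change was 0.66 with a standard error (SE) of 0.12 (FDR = 0.00545), and it missed the FDR threshold without control replicate 2 (0.58, FDR = 0.0675). The study checked its PRMT5 silencing at the protein level by immunoblot, which was not analysed here. All directions given here are by the labels. Squamous markers were sparse: KRT5, KRT14, KRT6A and CDH1 stayed under 1 CPM in every library, and the summed level of the 9 markers was 49.9 and 44 CPM in control against 23.3 and 33.4 CPM. Of the 9, only TP63 (-1.35 on the log2 scale, FDR = 0.0111) and DSG3 (-0.85, FDR = 0.00901) could be tested, and both were called lower. KRT17, untested, had 5 and 6 counts in control against 53 and 71, and SFN had 3 and 5 against 28 and 86. The 6 markers listed for fibroblasts, which hold collagens, DCN, LUM and PDGFRA, summed to 540 and 629 CPM in control and to 74.6 and 72.8 CPM with the PRMT5 KD label, and 5 of 5 tested were lower. Of the 4 endothelial markers the sum was 10.9 and 14.8 CPM against 2.10 and 1.15 CPM. PECAM1, at 7.4 and 9.78 CPM in control against 0.294 and 0.146 CPM, held most of the control sum. CDH5 had only 4 and 8 counts in control against 0 and 0, and KDR did not fall, with 34 and 36 counts against 52 and 33. The 5 leukocyte markers had CD3E at 0 throughout and owed almost all of their 94.8 and 113 CPM in control, and 153 and 170 CPM with the PRMT5 KD label, to CD68. The part of these differences in the WNT results was not tested, and in bulk RNA fewer cells of a type and less RNA per cell cannot be told apart.

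Of the 49 members, 22 reached an RPKM of 0.5 in both libraries of either group and were tested with the quasi-likelihood test of edgeR. RPKM values printed here are CPM per kilobase of exon, whereas the filter scaled to total protein-coding counts without TMM factors. Among these 22, 6 were called higher with the PRMT5 KD label and 9 were called lower. A call needed an FDR under 0.05 over all 11896 genes tested and a log2 fold change of 0.5 or more in either direction. The called share of 15 of 22 stands beside 45.5% of all genes tested (21.2% higher and 24.3% lower, or 2521 and 2896 genes). With total counts in place of TMM scaling, 3509 genes were higher and 2198 lower, and 7 members were higher and 8 lower. SFRP2 and WNT7B passed the filter only through the control libraries, and WNT16 only through the libraries labelled PRMT5 KD. Of the 19 members that passed in both groups, 5 were called higher and 8 lower. The groups did not overlap for 20 of the 22 members, against 80.5% of all genes tested. The median log2 fold change of the 22 was -0.54, against -0.0077 over all genes tested. Ligands, Frizzled receptors and secreted antagonists each had members called in both directions.

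**Figure D1:**
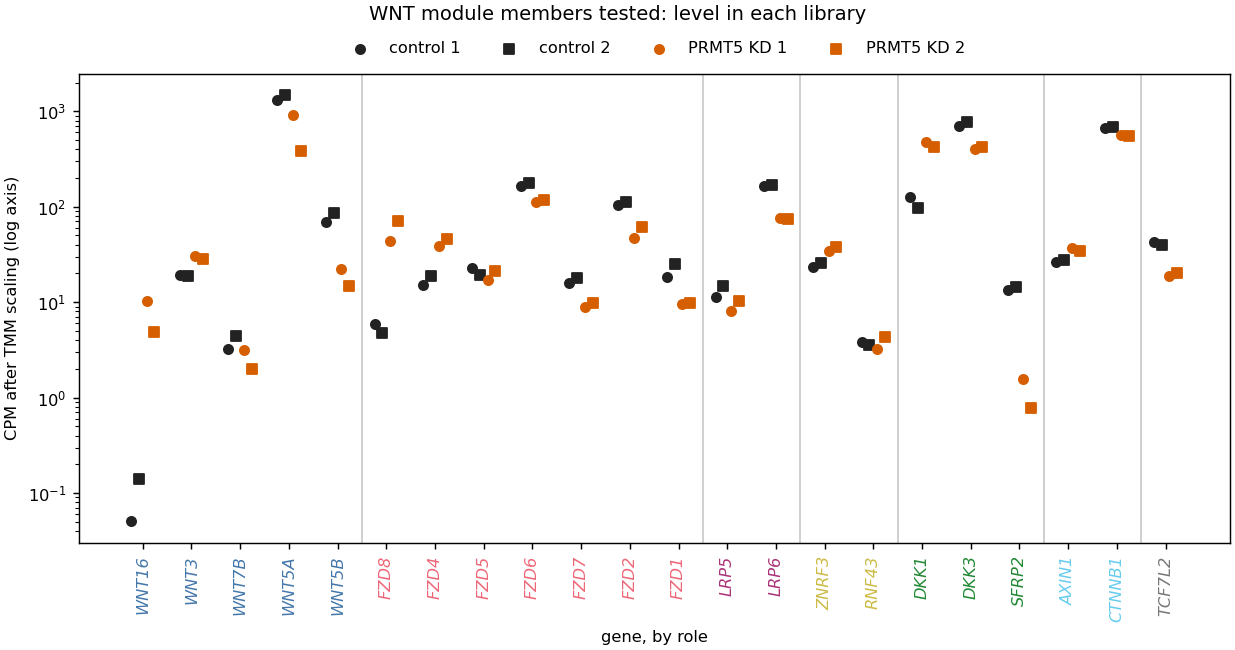
Level of the 22 tested WNT module members in each library, in CPM after TMM scaling on a log axis, with genes ordered by role and vertical lines between roles. WNT16, FZD8 and DKK1 are higher and SFRP2 and WNT5B lower in both libraries labelled PRMT5 KD (orange) than in both control libraries (black), while FZD5 and RNF43 overlap.

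WNT ligands were dominated by WNT5A, which falls in the beta-catenin-independent class. Per length, WNT5A had 183 and 206 RPKM in control and 127 and 53.9 RPKM in the libraries labelled PRMT5 KD, and it made up between 83.1% and 89.7% of the summed RPKM of the 19 ligands in every library. The other ligands were all under 21 RPKM in every library. In CPM, WNT5A (chr3:55465715-55490539, minus strand) had 1310 and 1480 in control against 911 and 386. Both control libraries lay above both others, but the 2 libraries labelled PRMT5 KD lay far apart. The log2 fold change of -1.10 (SE 0.42) was not called (FDR = 0.0774). It was -1.81 without PRMT5 KD replicate 1 and -0.60 without PRMT5 KD replicate 2, so the size of the difference rested on which of these libraries was kept.

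WNT5B, the closest relative of WNT5A, lies on chr12:1529891-1647212 (plus strand). It had 69.4 and 85.4 CPM in control against 22.1 and 14.8 CPM, with a log2 fold change of -2.07 (SE 0.22, FDR = 0.00109). It fell 4.19-fold, with no overlap between the groups. WNT3, a ligand of the canonical branch on chr17:46762506-46833154 (minus strand), rose from 19.4 and 18.7 CPM to 30.3 and 28.3 CPM. Its log2 fold change was 0.62 (SE 0.12, FDR = 0.00674), and the call was lost without control replicate 1 (0.65, FDR = 0.0525) or without control replicate 2 (0.60, FDR = 0.0716). WNT7B, another ligand expressed in epithelia, had 3.21 and 4.38 CPM against 3.15 and 2.01 CPM. Its log2 fold change of -0.56 was not called (FDR = 0.17), and ranged from -0.88 to -0.26 with each library left out.

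WNT16 had the largest fold change among the tested members. This ligand, known for its roles in bone and in keratinocytes, lies on chr7:121325367-121341104 (plus strand). Control libraries held 2 and 7 counts of it, against 492 and 235 with the PRMT5 KD label. The ratio of summed counts, scaled to library size, was 75.9 (95% exact interval 39.8 to 167, counting error only). WNT16 passed the filter only through the libraries labelled PRMT5 KD, so it was tested because of the group where it is high. In the fit, the log2 fold change was 6.22 (SE 0.61, FDR = 0.000795). It ranged from 5.62 without PRMT5 KD replicate 1 to 7.16 without control replicate 2, and was 5.74 without control replicate 1. Even so, WNT16 stayed a minor ligand per length, with 3.17 and 1.51 RPKM with the PRMT5 KD label.

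The other 14 ligands did not reach the filter. WNT1, WNT7A, WNT8A, WNT8B and WNT9B had no count in any library. WNT2B had 117 and 122 counts in control against 50 and 45, and WNT6 had 10 and 13 against 2 and 2. WNT10B went the other way, from 2 and 3 counts to 23 and 17, a ratio of 7.52 (95% exact interval 2.97 to 24.4). In a fit without a filter on low counts, 20 of the 41 members with any count were called, 8 higher and 12 lower, beside 36.7% of all 16834 genes in that fit. Those calls included WNT2B (-1.38, FDR = 0.00669) and WNT6 (-2.49, FDR = 0.0326) as lower and WNT10B (2.91, FDR = 0.00875) as higher. The exons of WNT2B overlap those of ST7L on the opposite strand, which had 724 and 892 counts in control against 571 and 680 (-0.46, FDR = 0.0364), so reads of this pair may not be fully told apart. WNT2 had 0 and 0 counts in control against 9 and 2 and was not called (FDR = 0.0583). WNT3A, WNT4, WNT9A, WNT10A and WNT11 never exceeded 7 counts in a library.

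Frizzled receptors, the membrane proteins that bind WNT through a cysteine-rich domain, changed in make-up. Of 10 receptors, 7 were tested, of which 2 were called higher and 4 lower. Over all genes tested, 21.2% were called higher and 24.3% lower. FZD8 (chr10:35638247-35642296, minus strand) rose most, from 5.86 and 4.72 CPM to 44.2 and 70.1 CPM. It was 10.8-fold higher, at a log2 fold change of 3.44 (SE 0.27, FDR = 0.000525). Leaving out each library gave 3.07 to 3.77. FZD4, which also serves as the receptor for norrin, lies on chr11:86945679-86955395 (minus strand). It rose from 15.2 and 18.6 CPM to 38.9 and 45.7 CPM, with a log2 fold change of 1.32 (SE 0.16, FDR = 0.00107). Its exons overlap those of PRSS23 on the opposite strand, which had 233 and 255 CPM in control and 312 and 482 CPM with the PRMT5 KD label (log2 fold change 0.70, FDR = 0.0356). The library kit keeps strand, but the strand setting of the counting is not given in the sources used here, so reads of this pair may not be fully told apart.

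The receptors that were most abundant in control went the other way. FZD6 (chr8:103298433-103332866, plus strand), a receptor linked to planar polarity, had 163 and 178 CPM in control and 112 and 118 CPM with the PRMT5 KD label. Its log2 fold change was -0.57 (SE 0.11, FDR = 0.00645). This call was lost with total counts (-0.39) and without control replicate 2 (-0.51, FDR = 0.0694), and without PRMT5 KD replicate 1 the value of -0.49 fell short of the fold change threshold. FZD2 (chr17:44557484-44561262, plus strand), a receptor for WNT5A, fell from 103 and 112 CPM to 47.3 and 61.3 CPM, with a log2 fold change of -0.99 (SE 0.15, FDR = 0.00248). The groups did not overlap for FZD2 or FZD6, as was so for 80.5% of all genes tested. The close relatives FZD1 and FZD7 fell with FZD2. FZD1 (chr7:91264433-91271326, plus strand) went from 18.2 and 25.3 CPM to 9.65 and 9.69 CPM, at -1.17 on the log2 scale (SE 0.19, FDR = 0.00304). FZD7 (chr2:202033855-202038441, plus strand) went from 15.7 and 18 CPM to 8.98 and 9.83 CPM, at -0.84 (SE 0.15, FDR = 0.00452), and was not called without control replicate 2 (FDR = 0.0579). FZD5, the closest relative of FZD8, had 22.7 and 19.3 CPM against 17.0 and 21.2 CPM, with overlapping groups (-0.13, FDR = 0.52). Its value turned to 0.05 both without PRMT5 KD replicate 1 and with total counts in place of TMM. FZD3 had 194 to 303 counts and FZD9 had 29 to 60 counts per library, without a call in the fit without a filter, and FZD10 had none.

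Per length, these shifts changed the order of the receptors. FZD6 (40.2 and 43.8 RPKM) and FZD2 (27.4 and 29.7 RPKM) led in control and together made up most of the family's RPKM. FZD6 remained first with the PRMT5 KD label, at 27.5 and 29.0 RPKM. FZD2 followed at 12.5 and 16.2 RPKM and FZD8 at 10.9 and 17.3 RPKM, and these ranges overlapped, so FZD2 and FZD8 could not be put in order there. The share of FZD8 in the summed Frizzled RPKM was 1.79% and 1.32% in control and 17.4% and 22.8% with the PRMT5 KD label. FZD4 went from 2.54% and 2.86% to 8.38% and 8.13%. Summed Frizzled RPKM was 81.0 and 88.2 in control and 62.8 and 76.1 with the PRMT5 KD label. These shares are a description of each library and were not tested.

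**Figure D2:**
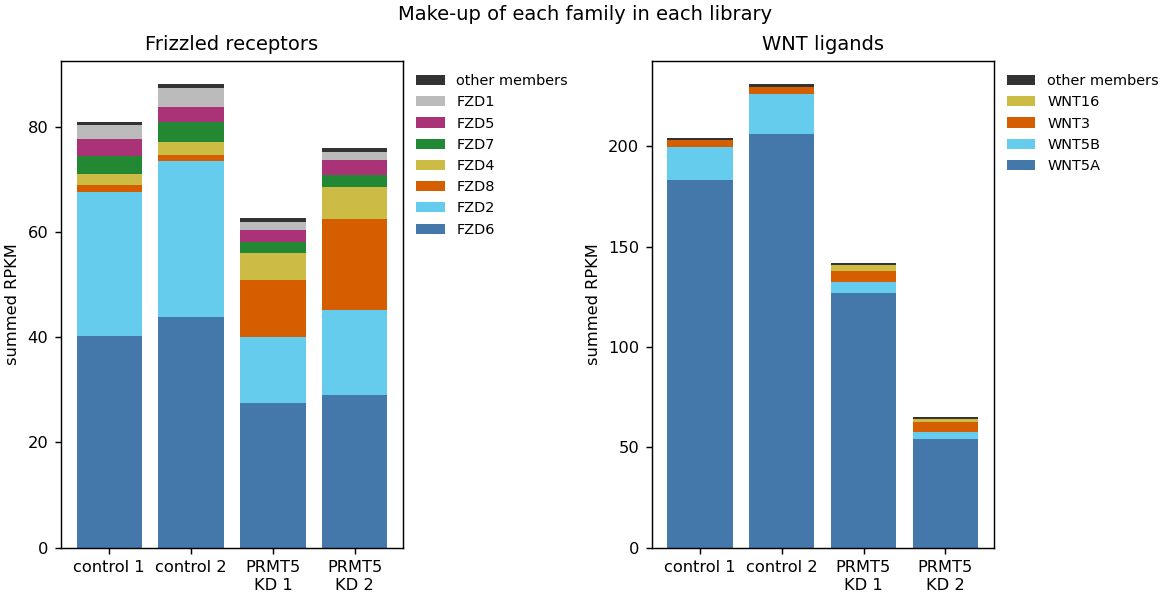
Summed RPKM of the Frizzled receptors (left) and of the WNT ligands (right) in each library, with each stacked segment showing 1 gene. FZD8 widens from 1.79% and 1.32% of the Frizzled total in control to 17.4% and 22.8% with the PRMT5 KD label, while WNT5A takes 83.1% or more of the ligand total in every library.

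Of the co-receptors, LRP6 was called lower. LRP6 (chr12:12116025-12267044, minus strand) had 166 and 170 CPM in control and 76.9 and 73.6 CPM with the PRMT5 KD label. It fell 2.23-fold, at a log2 fold change of -1.16 (SE 0.11, FDR = 0.000511), with values from -1.18 to -1.12 when each library was left out. LRP5 (chr11:68312591-68449275, plus strand), which can stand in for LRP6, had 11.4 and 14.9 CPM against 8.07 and 10.2 CPM. The groups did not overlap for LRP5 either, but its log2 fold change of -0.53 was not called (FDR = 0.0623). With each library left out, this value ranged from -0.70 to -0.33. LRP6 stood above LRP5 per length in every library, at 7.10 to 16.4 RPKM against 1.31 to 2.40 RPKM.

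RNF43 and ZNRF3 are ubiquitin ligases of the cell surface that remove Frizzled receptors and that are themselves induced by WNT signalling. ZNRF3 (chr22:28883572-29057488, plus strand) had 23.4 and 25.8 CPM in control and 34.1 and 37.6 CPM with the PRMT5 KD label, or 0.54 on the log2 scale (SE 0.13, FDR = 0.0123). The value lay just past the fold change threshold. The call was lost without control replicate 1 (0.47, FDR = 0.102), control replicate 2 (0.615, FDR = 0.0647) or PRMT5 KD replicate 2 (0.48, FDR = 0.0174). RNF43 had 3.87 and 3.52 CPM against 3.24 and 4.35 CPM, so the groups overlapped (0.04, FDR = 0.904), and its sign turned without control replicate 2 (-0.03) and without PRMT5 KD replicate 2 (-0.18).

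Secreted antagonists also split. DKK1, which blocks the canonical branch by binding LRP5 and LRP6 and is itself a known beta-catenin target, lies on chr10:52314281-52318042 (plus strand). It had 127 and 97.5 CPM in control and 476 and 425 CPM with the PRMT5 KD label. DKK1 was 4.01-fold higher, with a log2 fold change of 2.0 (SE 0.17, FDR = 0.00043) and values from 1.82 to 2.21 with each library left out. DKK3 (chr11:11956207-12009769, minus strand), a divergent member of the family that does not bind LRP6, fell from 695 and 777 CPM to 403 and 427 CPM. Its log2 fold change was -0.83 (SE 0.14, FDR = 0.00333), and USP47, whose exons overlap on the opposite strand, was not called (0.06, FDR = 0.669). Per length DKK3 and DKK1 lay close together in control, at 58.1 and 65.0 RPKM against 57.3 and 43.9 RPKM, but apart with the PRMT5 KD label, at 33.7 and 35.7 RPKM against 214 and 191 RPKM. DKK1 was thus the most abundant of the 49 members per length in both libraries labelled PRMT5 KD, where WNT5A had 127 and 53.9 RPKM.

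SFRP2, a soluble protein with a Frizzled-like cysteine-rich domain that binds WNT, fell most of the tested members. It lies on chr4:153780591-153789083 (minus strand) and had 13.4 and 14.4 CPM in control against 1.56 and 0.774 CPM, or 532 and 718 counts against 74 and 37. SFRP2 passed the filter only through the control libraries, so it was tested because of the group where it is high. The fall was 11.9-fold (log2 fold change -3.57, SE 0.32, FDR = 0.000525), and from -4.12 to -3.15 with each library left out. SFRP2 fell alongside the fibroblast markers given above, all of which were also lower in both libraries labelled PRMT5 KD, and their part in this result was not tested. The other SFRP genes were under the filter. SFRP1 had 20 and 18 counts against 1 and 8, a ratio of 4.49 of control over PRMT5 KD (95% exact interval 2.14 to 10.6), and was not called in the fit without a filter (FDR = 0.0587). SFRP4 had 12 and 28 counts against 3 and 0, and was called lower there (-3.63, FDR = 0.0133). FRZB had 59 and 46 counts against 38 and 51, and DKK2 had 51 and 53 against 71 and 95, neither with a call, while SFRP5 and DKK4 had none.

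Inside the cell, neither beta-catenin nor the scaffold AXIN1 was called. CTNNB1 (chr3:41194741-41260096, plus strand) had 664 and 690 CPM in control and 565 and 544 CPM with the PRMT5 KD label. The groups did not overlap, but the log2 fold change of -0.29 (SE 0.13) was not called (FDR = 0.0993). AXIN1 (chr16:287440-352723, minus strand) had 26.5 and 27.8 CPM against 37.2 and 34.3 CPM. Its value of 0.40 met the FDR threshold (0.0294) but was too small for a call. AXIN1 was called in a fit corrected for length and GC content of the exons (0.70, FDR = 0.00354) and with total counts in place of TMM (0.58, FDR = 0.0068). AXIN2, a feedback gene widely used as a readout of the canonical branch, was under the filter, with 61 and 57 counts in control against 79 and 105. The fit without a filter gave AXIN2 a log2 fold change of 0.58 without a call (FDR = 0.204).

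TCF7L2 was the only one of the 4 TCF/LEF factors to be tested. This factor (chr10:112950247-113167678, plus strand) had 42.8 and 39.3 CPM in control and 18.9 and 20.2 CPM with the PRMT5 KD label. It fell 2.10-fold, at a log2 fold change of -1.07 (SE 0.12, FDR = 0.000972), and stayed between -1.13 and -0.98 with each library left out. LEF1, which is often itself raised by WNT signalling, went the other way at a low level, from 43 and 39 counts to 93 and 127. It was called higher in the fit without a filter (1.36, FDR = 0.0122). TCF7 had 29 and 61 counts against 119 and 51 and TCF7L1 had 14 and 24 against 18 and 18, both with overlapping groups. TCF7 exons overlap those of the far more abundant SKP1 on the opposite strand (114 to 154 CPM). Counts per gene do not separate the isoforms of these factors with and without the beta-catenin binding domain.

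**Figure D3:**
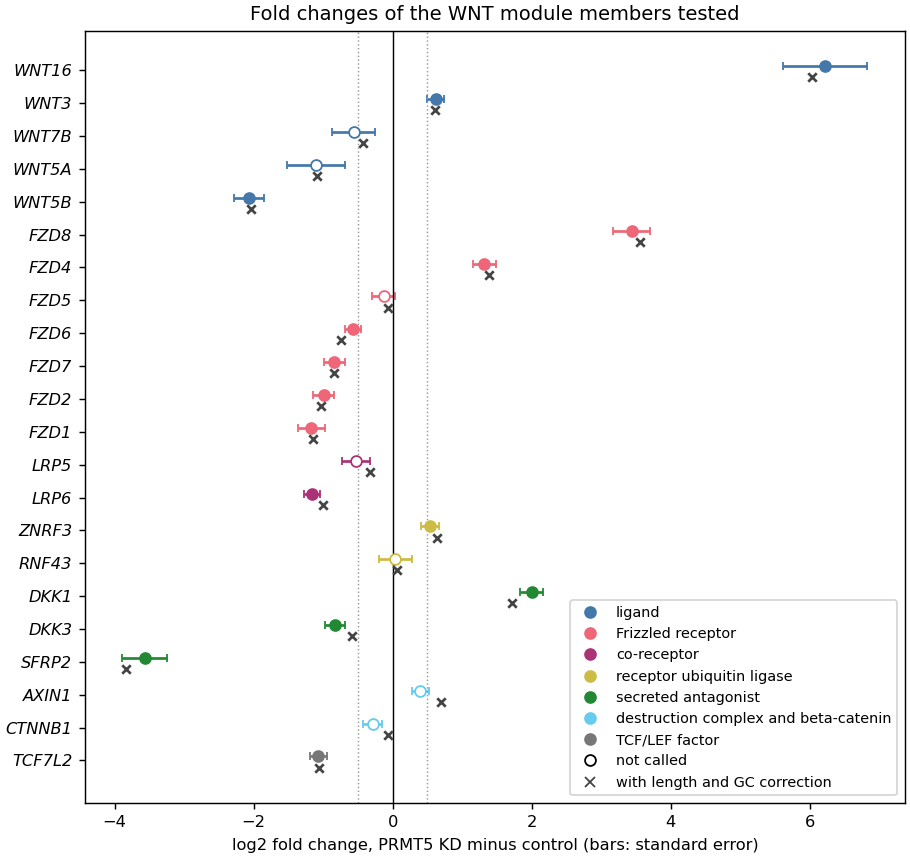
Log2 fold change of the 22 tested members, PRMT5 KD minus control, with standard errors as bars, filled circles for called genes, dotted lines at the threshold of 0.5 and crosses for the fit corrected for length and GC content. WNT16, FZD8 and DKK1 lie farthest to the right and SFRP2 and WNT5B farthest to the left, and the crosses keep all 15 calls.

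The tested members were somewhat long. Their median exon length was 6256 bases, against 5380 bases over all genes tested. In the fit corrected for length and GC content, all 15 calls were kept, AXIN1 was added as higher, and the median of the 22 was -0.37 in place of -0.54. DKK1 went from 2.0 to 1.72 and SFRP2 from -3.57 to -3.83, the called members that moved most.

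Promoter windows from RefSeq (GRCh38.p14), spanning 250 bases before to 50 bases after an annotated start, were found for 34 of the 49 members, some with more than 1 start (41 windows). Those of DKK1, FZD8, WNT16 and SFRP2, picked after their values were seen as members with large changes in either direction, are shown so that the sequence around their starts can be compared. The windows lie at chr10:52314031-52314330 (plus strand, DKK1), chr10:35642247-35642546 (minus strand, FZD8), chr7:121328750-121329049 (plus strand, WNT16) and chr4:153789034-153789333 (minus strand, SFRP2). Capitals mark a TCF/LEF motif (CTTTGAA or CTTTGAT, searched on both strands) or a TATA motif (TATAAA, searched on the strand of the gene), each written 5′ to 3′ on the strand of the gene.
DKK1: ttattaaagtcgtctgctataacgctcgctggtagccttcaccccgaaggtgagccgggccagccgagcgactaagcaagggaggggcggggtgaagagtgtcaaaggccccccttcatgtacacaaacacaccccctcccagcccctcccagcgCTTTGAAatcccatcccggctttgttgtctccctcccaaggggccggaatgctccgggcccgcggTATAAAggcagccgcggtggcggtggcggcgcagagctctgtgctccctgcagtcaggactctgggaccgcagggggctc
FZD8: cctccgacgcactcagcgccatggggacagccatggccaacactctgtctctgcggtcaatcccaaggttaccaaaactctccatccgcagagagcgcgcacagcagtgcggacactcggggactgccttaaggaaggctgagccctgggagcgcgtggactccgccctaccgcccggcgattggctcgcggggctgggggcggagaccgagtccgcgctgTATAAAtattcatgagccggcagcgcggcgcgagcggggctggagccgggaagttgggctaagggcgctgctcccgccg
WNT16: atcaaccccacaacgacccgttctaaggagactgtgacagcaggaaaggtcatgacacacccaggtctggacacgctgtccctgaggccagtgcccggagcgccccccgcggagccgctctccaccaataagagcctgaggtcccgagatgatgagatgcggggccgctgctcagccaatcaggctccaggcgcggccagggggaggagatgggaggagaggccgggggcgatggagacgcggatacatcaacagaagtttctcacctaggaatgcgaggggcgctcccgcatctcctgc
SFRP2: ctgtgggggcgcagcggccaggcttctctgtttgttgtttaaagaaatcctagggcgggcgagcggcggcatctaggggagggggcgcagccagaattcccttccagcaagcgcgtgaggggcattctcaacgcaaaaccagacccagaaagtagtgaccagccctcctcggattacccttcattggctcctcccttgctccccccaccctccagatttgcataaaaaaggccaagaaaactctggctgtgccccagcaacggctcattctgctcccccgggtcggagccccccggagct
The TCF/LEF motif was present in 6.86% of 35116 RefSeq windows and in 1 of the 41 member windows, that of DKK1, where it began at base -95 from the start. TATAAA was found in 7.33% of all windows and in 2 of the 41 member windows, which were those of DKK1 (base -30) and FZD8 (base -29). The windows of WNT16 and SFRP2 held neither set of letters. GC content was 63.7% for DKK1, 67.0% for FZD8, 63.7% for WNT16 and 60.3% for SFRP2, with 20, 31, 20 and 15 CpG dinucleotides. A match is a description of these letters, and no binding was measured in these libraries.

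For the rest of the pathway, 96 further genes were grouped by role, and 68 of them were tested. Of these, 9 were called higher and 23 lower, so 47.1% were called, close to the 45.5% over all genes tested. Their median log2 fold change was -0.17, and their median exon length was 8091 bases, against 5380 bases over all genes tested. With the length and GC correction, 13 were called higher and 19 lower, and with total counts 13 higher and 18 lower. TLE4, NFATC3, CD44 and TCF4 gained a call as higher with the length and GC correction. KREMEN1, ROR2, PRICKLE1, CELSR1 and BMP4 passed the filter only through the control libraries, and SP5 only through those labelled PRMT5 KD. Of the 62 genes that passed in both groups, 26 were called, 8 higher and 18 lower. Over all genes tested, 24.3% were called lower and 21.2% higher, and no such share was worked out for genes that passed in both groups. Among planar polarity genes, 7 of the 10 tested were called lower and 0 higher, with 5 of 8 lower among those that passed in both groups. For other membrane receptors and regulators, 6 of 7 tested were lower and 0 higher, with 4 of 5 lower among those that passed in both. Target genes often used as readouts had 4 higher and 1 lower of 9 tested, with 3 higher and 0 lower of the 7 that passed in both. No difference between roles was tested.

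**Figure D4:**
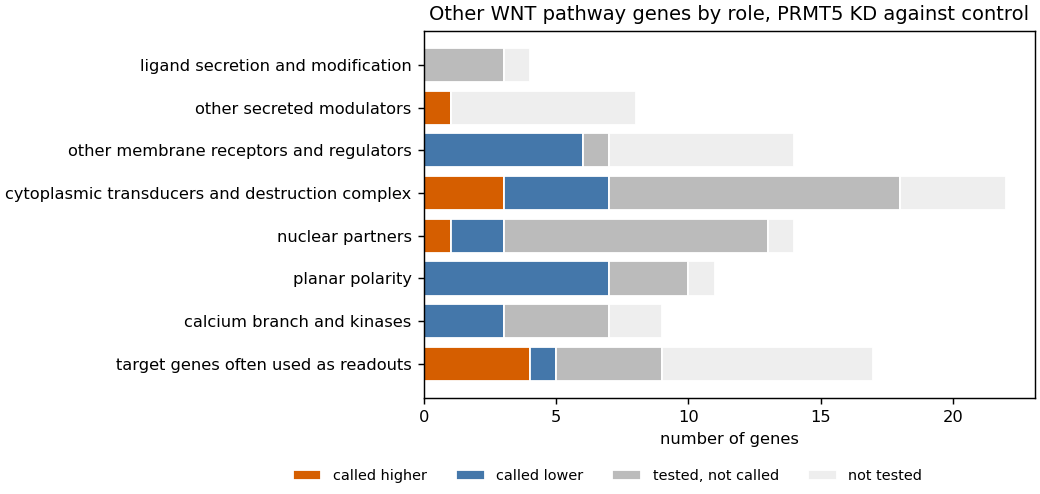
Number of other WNT pathway genes in each role that were called higher, called lower, tested without a call or not tested, PRMT5 KD against control. Lower calls were made for 7 of 10 planar polarity genes and 6 of 7 other membrane receptors tested. Of 9 readout genes tested, 4 were called higher and 1 lower. Among genes that passed the filter in both groups, these were 5 of 8 and 4 of 5 lower, and 3 higher and 0 lower of 7.

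Planar polarity genes hold the core of the pathway that orients cells within a sheet. PRICKLE1, a cytoplasmic core component that passed the filter only in control, had 21.5 and 26.8 CPM in control and 1.58 and 2.87 CPM with the PRMT5 KD label (log2 fold change -3.44, SE 0.30, FDR = 0.000602). The atypical cadherins CELSR2 (-1.74, FDR = 0.00044) and CELSR1 (-1.75, FDR = 0.000453) fell by similar amounts, but CELSR1 passed the filter only in control. CELSR3, DAAM1, PRICKLE2 and VANGL2 were lower as well, and the last pair lost their calls without either control library and with total counts. PRICKLE2 also lost its call without PRMT5 KD replicate 2 (-0.47) and after the length and GC correction (-0.37, FDR = 0.0945). With that correction, CELSR1, CELSR2 and CELSR3 kept their calls at smaller values (-1.21, -1.28 and -0.56). VANGL1, PRICKLE3 and SCRIB were tested without a call.

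Of the 14 other membrane receptors and regulators, 7 were tested, and TMEM198 was the 1 of these without a call. ROR2, a receptor tyrosine kinase for WNT5A that passed the filter only in control, had 4.30 and 6.0 CPM in control and 0.778 and 0.753 CPM with the PRMT5 KD label (-2.75, SE 0.29, FDR = 0.000754). PTK7, a pseudokinase co-receptor, fell from 321 and 384 CPM to 143 and 182 CPM (-1.12, FDR = 0.00227). SDC1, a heparan sulfate proteoglycan of the cell surface, fell from 348 and 447 CPM to 131 and 141 CPM (-1.55, FDR = 0.000653). The other 3 called lower in this role were RYK, LGR4 and KREMEN1, of which KREMEN1 passed the filter only in control. Without control replicate 2 the calls of LGR4 (-0.83) and KREMEN1 (-1.35) were lost. PRKCA, a protein kinase C of the calcium branch, went from 116 and 113 CPM to 26.8 and 25.0 CPM (-2.14, SE 0.11, FDR = 0.000191). NFATC4 (-0.98, FDR = 0.00169) and CAMK2D (-0.60, FDR = 0.01) were also called lower of the 7 genes of that branch tested, and CAMK2D was not called after the length and GC correction (-0.32), without control replicate 2 or without PRMT5 KD replicate 1 (-0.45).

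RSPO3, a secreted partner of LGR receptors that stabilizes Frizzled at the surface, was the only other secreted modulator of 8 that could be tested. It had 14.4 and 5.06 CPM in control and 54.4 and 72.0 CPM with the PRMT5 KD label (2.71, SE 0.54, FDR = 0.014). The control libraries differed from each other, and the call was lost without PRMT5 KD replicate 1 (FDR = 0.202), without PRMT5 KD replicate 2 (FDR = 0.243) and without a filter on low counts (FDR = 0.064). Its log2 fold change was 3.64 without control replicate 1 and 2.13 without control replicate 2. PORCN and WLS, which lipidate and carry WNT ligands, and TRABD2A were tested without a call.

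Among cytoplasmic transducers, 3 of 18 tested were called higher and 4 lower. USP34 (-1.33, FDR = 0.000795), a deubiquitinase acting on AXIN, the destruction complex scaffold APC (-0.69, FDR = 0.00254), TNKS (-0.86, FDR = 0.00344), the tankyrase that marks AXIN for degradation, and the kinase GSK3B (-0.97, FDR = 0.00346) were lower. APC was not called after the length and GC correction (-0.43). The higher genes were AMER1 (1.04, FDR = 0.00346), CSNK1E (0.60, FDR = 0.00437) and GSK3A (0.60, FDR = 0.0046), so the kinase pair GSK3A and GSK3B went in opposite directions. The calls of CSNK1E without control replicate 1 and of GSK3A without control replicate 2 were lost. DVL1, DVL2 and DVL3 were tested without a call. Of 13 nuclear partners tested, 10 were not called. One of them, TLE4 (0.45, FDR = 0.0421), was called higher after the length and GC correction (0.56, FDR = 0.0174). TLE3 was called higher (0.67, FDR = 0.00464), and TLE1 (-0.52, FDR = 0.0097) and CTNNBIP1 (-0.68, FDR = 0.0257) lower. The last 2 lost their calls without control replicate 2, without PRMT5 KD replicate 1 and with total counts. TLE1 also lost its call without control replicate 1 and after the length and GC correction.

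Readout genes were called in both directions, but among the 7 that passed the filter in both groups, 3 were higher and 0 lower. BMP4 passed only through the control libraries and SP5 only through those labelled PRMT5 KD. BMP4 was lower, with 5.33 and 5.32 CPM in control and 0.799 and 1.07 CPM with the PRMT5 KD label (-2.51, SE 0.26, FDR = 0.000732). CCND1, which encodes cyclin D1, rose from 133 and 162 CPM to 449 and 286 CPM (1.32, FDR = 0.00653), a call lost without control replicate 1 (FDR = 0.052). EPHB2 was called higher at 0.56 (FDR = 0.00746), and without control replicate 2 its value was 0.49 (FDR = 0.0788). MYC (0.80, FDR = 0.00972) and SP5 (1.12, FDR = 0.0356) were higher, and MYC lost its call without control replicate 2 and SP5 without either control library or PRMT5 KD replicate 2. LGR5, NKD1, NOTUM, ASCL2 and FGF20, which are also used as readouts, had at most 11 counts in any library. In the fit without a filter on low counts, TNFRSF19 (-1.83, FDR = 0.00287), EPHB3 (-1.34, FDR = 0.0275) and NOTUM (-5.36, FDR = 0.0463) were called lower. No other untested readout, MMP7 among them, was called there in either direction. CD44, JUN, SOX9 and TCF4 were tested without a call. With the length and GC correction, CD44 (0.85, FDR = 0.0371) and TCF4 (0.70, FDR = 0.00246) were called higher.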

How the data were processed

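RNA-seq libraries from UMSCC74B cells were compared, 2 control and 2 labelled PRMT5 KD. The authors deposited estimated counts per gene, 1 table per library and not normalized. Their processing notes list FastQC, Trim Galore, STAR, Salmon, DESeq2 and GRCh38 without versions, whereas the methods describe FeatureCounts on Gencode protein-coding genes. Entries turned into dates (28 of 29744) were left out, and 18916 of the remaining names matched protein-coding genes of GENCODE 44 (GRCh38). Counts were rounded. Testing was limited to protein-coding genes whose 2 control or 2 PRMT5 KD values were both 0.5 RPKM or more, and used edgeR 4.0.16 (R 4.3.3; TMM, robust quasi-likelihood, Benjamini-Hochberg), with standard errors from the fold change and F statistic. DESeq2 1.42.0, other scalings, no filter, all gene names, a replicate term, a length and GC correction (splines, 4 degrees of freedom) and leaving out each library were alternatives. A fit with a library left out takes its spread from the other group alone, so its FDRs and calls are less secure. An exact permutation of 2 against 2 libraries cannot go below p = 0.333. Tested members and the 3 called genes of lowest FDR per other role were to be named, and genes beyond these were named after their values were seen. Members and lists were chosen with earlier results of these data known.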

Additional observations from a re-analysis of the deposited data

How the results depend on the processing

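Of the 15 member calls, 11 held under all 13 alternatives, and those of FZD6, FZD7, WNT3 and ZNRF3 did not. Of the 32 calls on other pathway genes, 17 held under all of them. A fold change threshold of 1 left 2560 genes, 4 members higher and 5 lower, and 4 higher and 12 lower among the other pathway genes, by its own construction. With each library left out, called genes numbered 3117 to 5708, against 5417, and other pathway genes called higher 5 to 12, against 9, with the fewest of both without control replicate 2. The median of the tested members was -0.365 with total counts alone, -0.371 with the length and GC correction, -0.380 with that correction and the replicate block, and -0.666 to -0.320 with each library left out. The PRMT5 difference ranged from 0.572 to 0.782 with each library left out. FZD5 turned to 0.047 with total counts alone and ranged from -0.29 to 0.053 with each library left out, and RNF43 from -0.181 to 0.28. FZD6 lost its call with total counts alone (-0.39), which moved the median of all genes tested from -0.0077 to 0.171 and the share of calls that were higher from 46.5% to 61.5%. The cause of these changes was not tested.

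Deviations of libraries that share a replicate number correlated at -0.102 across genes. With 2 libraries per group this is a single value, so it cannot show whether such libraries shared a batch or a culture. The replicate block gave 5182 called genes and the crossed pairing, added after the data were seen, 5483. LRP5 gained a call with the replicate block (-0.52, FDR = 0.0446) and WNT5A with the crossed pairing (-1.23, FDR = 0.0197). Without PRMT5 KD replicate 1, WNT5A (-1.81) and WNT7B (-0.88) gained a call. Without PRMT5 KD replicate 2, WNT5A (-0.60) and LRP5 (-0.70) did. These fits take their spread from the control libraries alone. Genes of under 10 counts per library, which include most WNT ligands, are limited by depth.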
